A study of Caenorhabditis elegans with 9 samples.

Results

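The histone genes of Caenorhabditis elegans were examined by RNA sequencing in extruded adult germ lines. Members were all genes whose WormBase symbol is his- followed by a number, plus htz-1, which gave 73 of the 46245 genes in the table. Levels are FPKM, fragments scaled to transcript length and to the size of the library. From adulthood on, worms ate bacteria with an empty vector (EV) or bacteria that silence iff-1, a gene for a homologue of the translation factor eIF5A. They were held at 15°C or 20°C until day 6 of adulthood, when the germ lines were dissected out. Each of the 3 groups had 3 libraries. They are called EV 15C, EV 20C and iff-1 RNAi 15C, after food and temperature. All groups were fed RNAi bacteria, the feeding exposes the whole animal and not the germ line alone, and the labels name no strain. Nothing in the labels tells if the replicates of a group were grown separately, and the p-values therefore cover only the spread among these libraries, which may be technical.

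Histones package DNA into nucleosomes, each built from pairs of H2A, H2B, H3 and H4, while the linker histone H1 binds between nucleosomes. Genes of the core types are present in many near-identical copies, are transcribed mainly in S phase, and in animals give mRNAs that end in a stem-loop and not in a poly-A tail. Replacement variants such as H3.3 and H2A.Z are made outside S phase as well, in animals mostly from genes with introns and polyadenylated mRNAs. Of the 6 replacement variant genes here, 4 have an annotated intron, and his-69 and his-70 have none. The libraries were poly-A selected, so the values are not a measure of all histone mRNA. Whether the reads of the core-type genes came from polyadenylated molecules was not tested.

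The members comprised 17 H2A, 17 H2B, 16 H3 and 16 H4 genes of the core types, 5 H3.3 genes (his-69 to his-72 and his-74), the H2A.Z gene htz-1 and the H1 gene his-24. Types were assigned from gene names and set against the annotated coding length. All 16 H4 genes had 103 codons, 15 of 16 H3 genes 136, 16 of 17 H2A genes 127, and 16 of 17 H2B genes 122 or 123. The exceptions were his-73 with 46 codons, his-39 with 67 and his-57 with 147. The genes lie on all 6 chromosomes, with 27 on V, 23 on IV, 14 on II, 4 on X, 3 on III and 2 on I. Neighbouring members form 31 divergently transcribed pairs separated by 227 to 368 bases, of which 16 join an H2A to an H2B gene and 14 an H3 to an H4 gene. Coordinates are those of WBcel235, and the build the authors used is not given in the sources used here.

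A minority of histone genes gave values well above 0. A mean of at least 1 FPKM over the 9 libraries was reached by 24 of 73 genes, and 21 of these exceeded 1 FPKM in every library. Another 16 genes were above 0 in some library with a mean under 1 FPKM, and 33 were listed at 0 in all libraries. All 33 were core-type genes without an annotated intron. They included 10 H2A, 10 H2B, 6 H3 and 7 H4 genes.

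The genes listed at 0 were mostly copies that the annotation does not tell apart by name. Ensembl gives 36 members a symbol that another member also carries, and 30 of those 36 were listed at 0 in all libraries. Among the 37 members with a symbol of their own, 3 were listed at 0 (his-16, his-42 and his-39). In the array of 13 genes on chromosome II, from 13817760 to 13828697, 11 were at 0, and in an array of 6 genes on chromosome V, from 8847393 to 8854053, all 6 were. An exact 0 in such a table can be a failed estimate for reads that match several copies, so it was not read as absence of the RNA. How the authors handled reads that match several copies is not given in the sources used here.

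**Figure D1:**
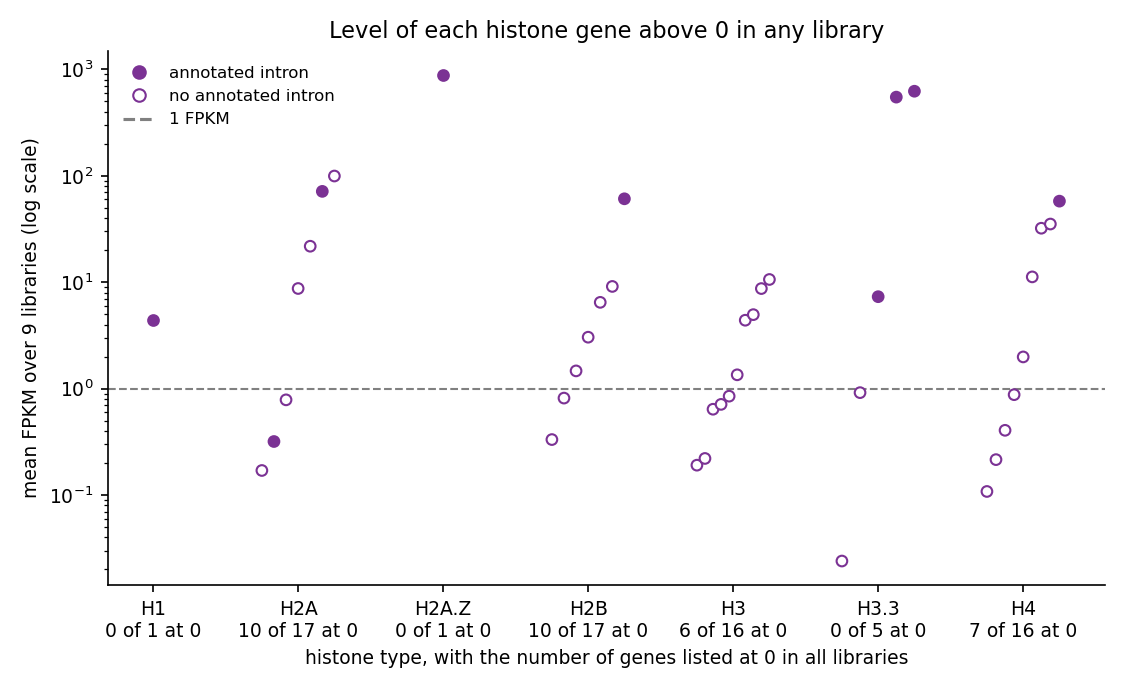
Mean FPKM over the 9 libraries (vertical axis, log scale) of each histone gene above 0 in any library, by histone type, with filled points for genes with an annotated intron. The genes htz-1, his-74 and his-72 stand above all others, and 33 genes listed at 0 are counted under the axis.

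The highest genes were the replacement variants. The gene htz-1 had a mean of 884 FPKM, his-74 had 623 FPKM and his-72 had 549 FPKM. The next were the H2A gene his-68 with 99.5 FPKM, the H2A gene his-35 with 71.4 FPKM, the H2B gene his-41 with 60.8 FPKM and the H4 gene his-37 with 57.8 FPKM. FPKM is scaled to length, so these levels can be set beside each other, but 60 of the 66 core-type genes are annotated as a coding sequence of 312 to 411 nt with no UTR, and the length the authors used for them is not given. Of the 9 members with an annotated intron, 8 had a mean of at least 1 FPKM, against 16 of the 64 without one. Of those 64, however, 33 were the genes listed at 0 in all libraries, which was not read as absence of the RNA. Replacement variants made up 79.9% to 83.9% of the summed FPKM of all members in the 9 libraries, and H3.3 made up 96.8% to 97.8% of the summed H3 and H3.3. These are shares within poly-A selected libraries, where 6 of the 16 H3 genes were listed at 0, and not the composition of all histone mRNA.

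The other H3.3 genes were low. The gene his-71 had 6.30 to 8.66 FPKM, his-69 had 0.556 to 1.81 FPKM, and his-70 was listed at 0 in 8 libraries and at 0.216 FPKM in iff-1 RNAi 15C replicate 3. The linker gene his-24 had 1.78 to 12.8 FPKM.

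All 10 germ line markers checked, among them glp-1, gld-1 and pgl-1, were above 1 FPKM in all libraries, with sums of 5181 to 5353 FPKM per library. Markers of other cells were present at lower sums. For muscle, 9 of 10 markers had a mean of at least 1 FPKM, with sums of 192 to 223 FPKM in EV 15C, 125 to 197 in EV 20C and 144 to 174 in iff-1 RNAi 15C. For intestine it was 6 of 10, with sums of 94.8 to 300, 66.4 to 159 and 116 to 304 FPKM, and for sperm 2 of 10, with 6.86 to 10.7, 4.06 to 5.40 and 17.1 to 27.03 FPKM. For cuticle and epidermis it was 4 of 8, with sums of 13.3 to 24.7, 5.10 to 13.1 and 12.8 to 27.2 FPKM. For neurons it was 6 of 10, with sums of 215 to 218 FPKM in EV 15C, 255 to 265 in EV 20C and 226 to 234.5 under iff-1 RNAi, without overlap between any groups. Most of each neuron sum was snb-1, with a mean of 215 FPKM over the 9 libraries, so the sums mainly follow that gene. The mean of unc-119 was 13.8 FPKM, and the other neuron markers averaged at most 1.77 FPKM. For the somatic gonad it was 6 of 8, with sums of 121 to 151, 97.9 to 167 and 112 to 129.9 FPKM. For the early embryo list it was 3 of 8, with 178 to 184, 183 to 199.6 and 174 to 180.1 FPKM. Most of that was pal-1, with a mean of 171.5 FPKM, so these sums are no measure of embryo RNA. The gene ref-1 averaged 10.2 FPKM and the others of that list at most 1.86 FPKM. Among the sperm markers, fog-3 averaged 9.21 FPKM over the 9 libraries, with a range of 2.34 to 23.7, and smz-1 averaged 1.60 FPKM. The other sperm markers averaged at most 0.665 FPKM, so the sperm sums are mostly fog-3. Of them, msp-142 and msp-78 were listed at 0 in all libraries. The part of these cells in the results was not tested, and in bulk RNA fewer cells of a type and less RNA per cell cannot be told apart. The RNAi target iff-1 averaged 2613 ± 90.4 FPKM in EV 15C, 2529 ± 119.4 in EV 20C and 66.4 ± 34.01 in iff-1 RNAi 15C (SD, n = 3).

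The comparison of EV 20C with EV 15C addresses the effect of the warmer temperature. At 20°C the variant genes htz-1 and his-72 and the core-type genes his-60, his-59 and his-48 rose, and the core-type genes his-67, his-41 and his-35 fell. The genes of one type thus moved both ways. H4 had his-60 among the rises and his-67 among the falls, and H2B had his-48 and his-41. In all, 8 of the 24 tested members were called, 5 higher and 3 lower, at an adjusted p under 0.05 in limma's test of log2(FPKM + 1) across all genes. Of all 8572 genes tested 28% were called, 19.3% higher and 8.69% lower, so 68.97% of the called genes were higher, or 54.1% under median ratio scaling. The members' share is near that background. Their median log2 fold change was 0.06, against 0.03 for all genes.

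**Figure D2:**
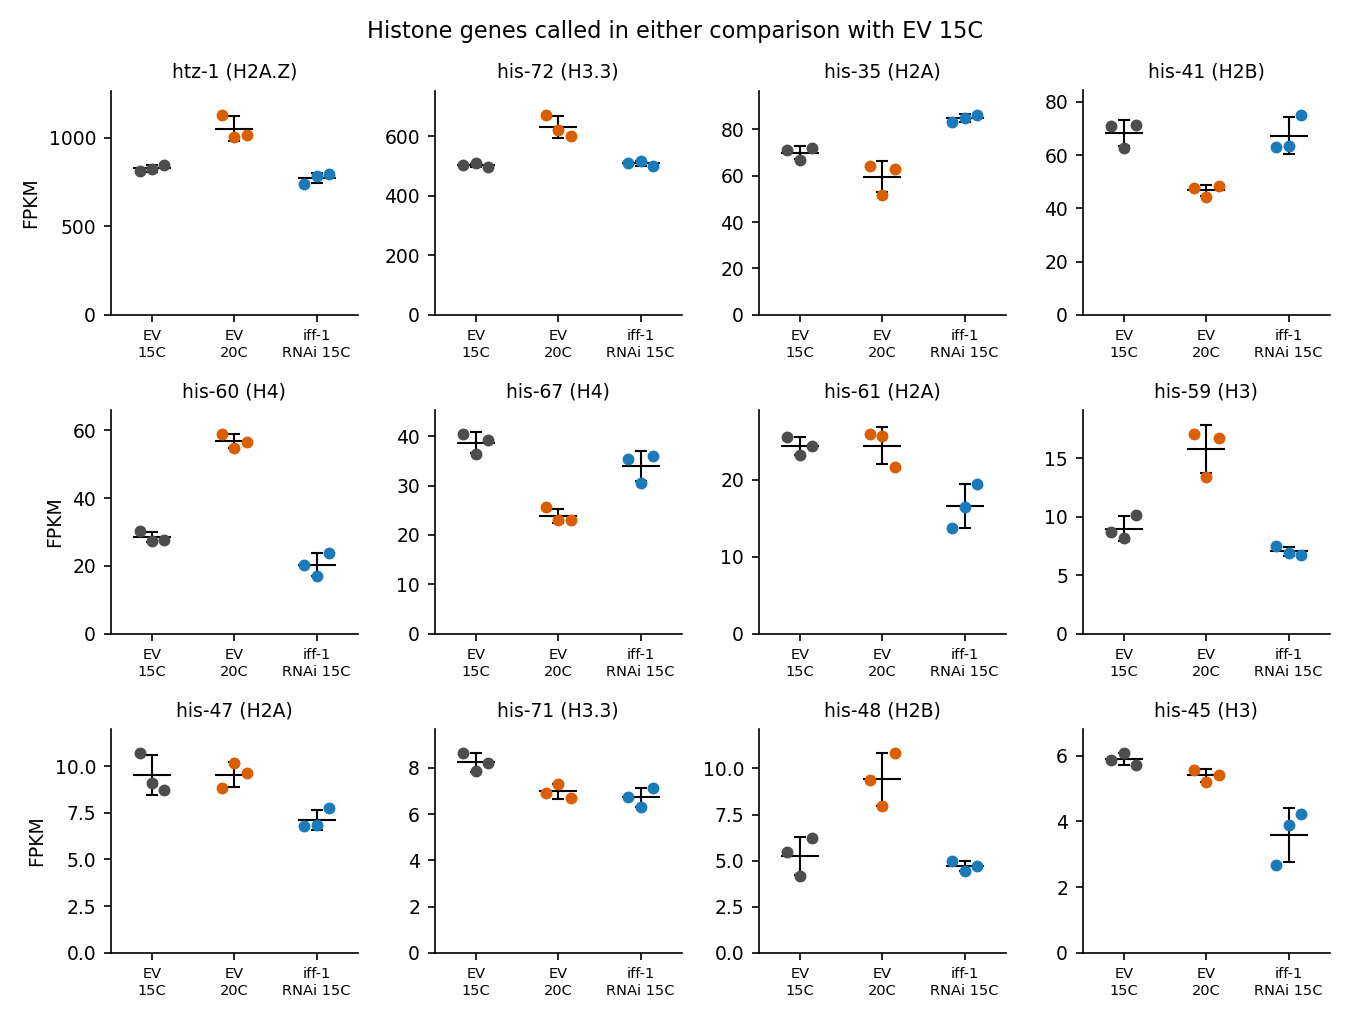
FPKM in each library (points) with mean and SD (bars) for the 12 histone genes called against EV 15C at 20°C or under iff-1 RNAi, in order of their mean. The EV 20C points of htz-1, his-72, his-60, his-59 and his-48 all lie above the EV 15C points.

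The gene htz-1 (chromosome IV, 4446216 to 4446999, plus strand) encodes H2A.Z, the H2A variant placed at promoters. It had 811, 825 and 849 FPKM in EV 15C and 1132, 1003 and 1017 FPKM in EV 20C. Every EV 20C library was above every EV 15C library. The mean rose from 828 ± 19.5 to 1051 ± 70.9 FPKM (SD, n = 3), or by 0.34 on the log2 scale (SE 0.05, limma adjusted p = 0.00254).

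The gene his-72 (chromosome III, 12367475 to 12369050, minus strand) is 1 of the 2 abundant H3.3 genes. It had 503, 509 and 499 FPKM in EV 15C and 674, 622 and 602 FPKM in EV 20C, without overlap. It rose by 0.33 on the log2 scale (SE 0.04, limma adjusted p = 0.00134). The other, his-74 (chromosome V, 12659704 to 12660330, minus strand), had 588, 603 and 583 FPKM in EV 15C and 701, 592 and 618 FPKM in EV 20C. These groups overlapped, and the difference of 0.10 did not pass (SE 0.06, limma adjusted p = 0.19). The low H3.3 gene his-71 had 8.66, 7.85 and 8.19 FPKM at 15°C and 6.93, 7.30 and 6.70 FPKM at 20°C (log2 -0.21, SE 0.08, limma adjusted p = 0.0766), which passed under median ratio scaling (adjusted p = 0.0386).

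The largest rise of a member past the threshold was that of the H4 gene his-60 (chromosome IV, 7487681 to 7487992, minus strand). It had 30.2, 27.4 and 27.7 FPKM in EV 15C and 59.04, 54.8 and 56.6 FPKM in EV 20C. The mean was 2.00 times as high (log2 0.97, SE 0.10, limma adjusted p = 0.000852). The H3 gene his-59 begins 256 bases away and is transcribed away from his-60. It had 8.67, 8.17 and 10.2 FPKM in EV 15C and 17.1, 13.4 and 16.8 FPKM in EV 20C (log2 0.74, SE 0.11, limma adjusted p = 0.00269). Both genes of this H3 and H4 pair were therefore higher in every EV 20C library than in any EV 15C library.

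The same array holds an H2A and H2B pair, his-61 and his-62, which lie 327 bases apart and did not pass at 20°C. The H2A gene his-61 had 25.5, 23.2 and 24.4 FPKM at 15°C and 25.98, 25.6 and 21.6 FPKM at 20°C (log2 -0.002, limma adjusted p = 0.996). The H2B gene his-62 had 9.33, 8.71 and 10.3 FPKM at 15°C and 11.98, 9.41 and 9.03 FPKM at 20°C (log2 0.09, limma adjusted p = 0.689). The difference between the pairs was not itself tested.

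A further array on chromosome IV gave the rise of the H2B gene his-48 (11324745 to 11325116, plus strand). It had 5.45, 4.16 and 6.21 FPKM in EV 15C and 9.40, 7.98 and 10.9 FPKM in EV 20C, without overlap (log2 0.74, SE 0.15, limma adjusted p = 0.00771). Its divergent H2A partner his-47 had 8.71 to 10.7 FPKM at 15°C and 8.85 to 10.2 FPKM at 20°C (log2 0.01, limma adjusted p = 0.961), and is named after its values were seen. The H3 gene his-63 had 9.23, 8.10 and 8.20 FPKM at 15°C and 11.1, 9.18 and 9.69 FPKM at 20°C (log2 0.21, limma adjusted p = 0.255).

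The falls at 20°C were in 3 core-type genes. The H4 gene his-67 (chromosome I, 9988452 to 9988763, minus strand) had 40.5, 36.4 and 39.1 FPKM in EV 15C and 25.6, 22.97 and 22.95 FPKM in EV 20C. The groups did not overlap, and the mean fell by 38.4% (log2 -0.68, SE 0.07, limma adjusted p = 0.000923). Its divergent neighbour his-68, an H2A gene 368 bases away, had 100.8, 104.7 and 103.3 FPKM in EV 15C and 99.98, 88.4 and 98.3 FPKM in EV 20C (log2 -0.11, SE 0.05, limma adjusted p = 0.16).

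The genes his-35 (H2A), his-41 (H2B) and his-37 (H4) lie together on chromosome V between 9544659 and 9547607, and are the only core-type genes with an annotated intron besides his-57. At 20°C his-41 fell from 70.9, 62.6 and 71.4 FPKM to 47.7, 44.4 and 48.3 FPKM, without overlap (log2 -0.53, SE 0.08, limma adjusted p = 0.00242). The gene his-41 overlaps C50F4.6 on the same strand, and C50F4.6 fell too, from 53.1 ± 2.90 to 42.7 ± 2.05 FPKM (limma adjusted p = 0.0347). How far these 2 genes share reads is not known here and was not tested.

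The H2A gene his-35 had 70.9, 66.7 and 71.9 FPKM in EV 15C and 63.95, 51.8 and 62.8 FPKM in EV 20C (log2 -0.23, SE 0.07, limma adjusted p = 0.045). This call was lost in 9 of 18 alternatives, with adjusted p from 0.0257 to 0.12, among them leaving out any 1 library other than EV 20C replicate 1 or 2. Without EV 20C replicate 2 it passed (adjusted p = 0.0433) with a smaller log2 fold change of -0.14. The H4 gene his-37 had 60.6, 56.01 and 59.6 FPKM at 15°C and 58.7, 43.3 and 49.6 FPKM at 20°C (log2 -0.22, SE 0.10, limma adjusted p = 0.117). Without EV 20C replicate 1 the log2 fold change was -0.33 and passed (adjusted p = 0.0139), and without EV 20C replicate 2 it was -0.12 (adjusted p = 0.3). It overlaps nstp-10 on the other strand, which rose from 103.5 ± 7.42 to 122 ± 3.33 FPKM (limma adjusted p = 0.013).

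The linker histone gene his-24 (chromosome X, 14490094 to 14491119, plus strand) encodes H1.1 and had 2.82, 3.39 and 3.77 FPKM in EV 15C and 4.81, 12.8 and 5.28 FPKM in EV 20C. The groups did not overlap, but EV 20C replicate 2 was far above the other libraries and the difference did not pass (log2 0.89, SE 0.30, limma adjusted p = 0.058). That library also had the highest sums of its group for intestine markers, 159 FPKM against 77.8 and 66.4, and muscle markers, 197 FPKM against 125 and 150.3. Intestine sums were higher in EV 15C replicate 3 (299.5 FPKM) and iff-1 RNAi 15C replicate 1 (303.5 FPKM), where his-24 had 3.77 and 2.08 FPKM. Muscle sums were higher in EV 15C replicates 1 and 3 (198 and 223 FPKM), where his-24 had 2.82 and 3.77 FPKM. The somatic gonad sum of EV 20C replicate 2, 167 FPKM, was the highest of the 9 libraries, against 97.9 and 138.5 in its group. Its cuticle and epidermis sum was 13.1 FPKM, against 5.30 and 5.10, and the EV 15C libraries had 13.3 to 24.7 FPKM. The part of these cells in the his-24 values was not tested. Without EV 20C replicate 2 the log2 fold change of his-24 was 0.49 (limma adjusted p = 0.0576), and without EV 20C replicate 1 it was 1.11 (adjusted p = 0.0335).

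The remaining tested members were H2B genes his-11 and his-58, H3 genes his-25, his-32 and his-45, and H4 genes his-31 and his-64. None of these 7 passed at 20°C (limma), with log2 fold changes from -0.67 for his-31 to 0.39 for his-25. Groups did not overlap for 13 of 24 members, against 45.4% of all genes tested.

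**Figure D3:**
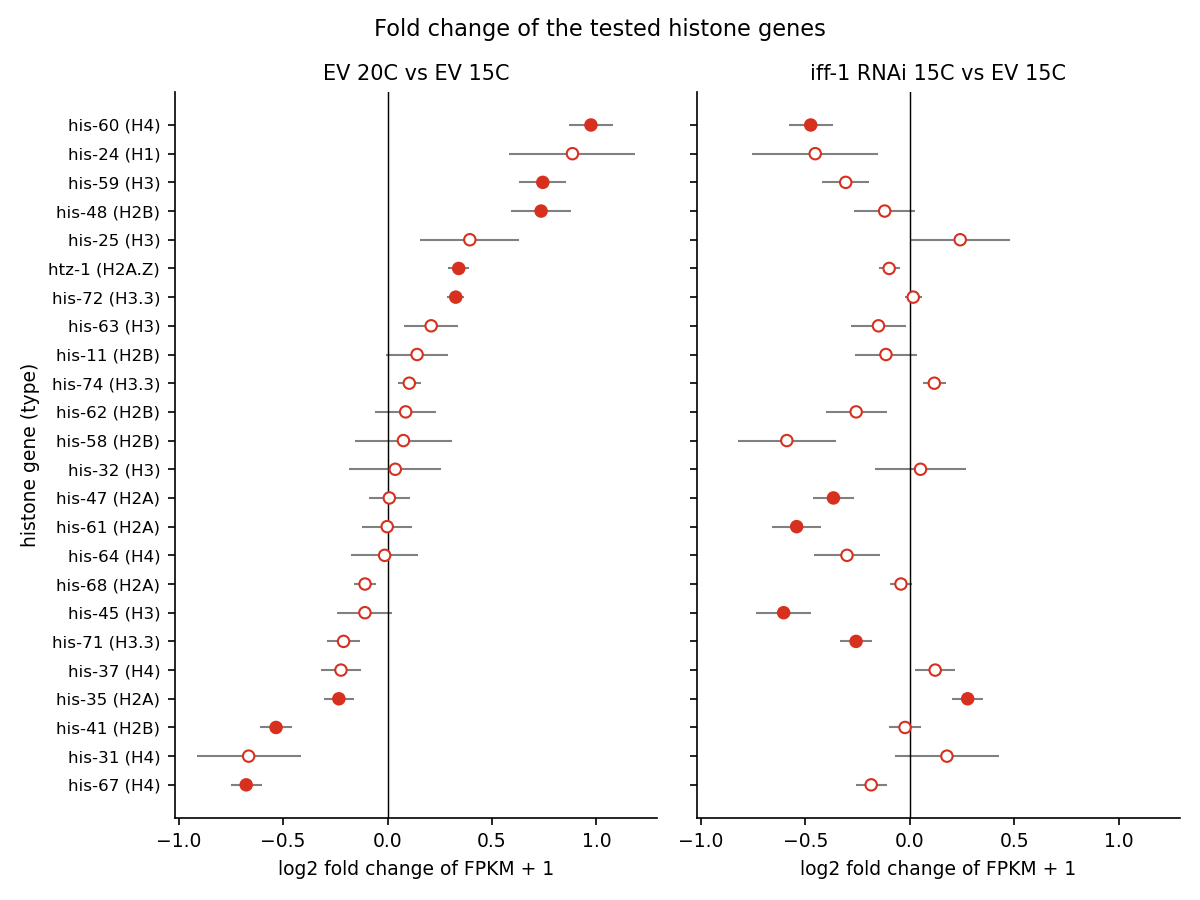
Log2 fold change of FPKM + 1 with its SE for the 24 tested histone genes, at 20°C (left) and under iff-1 RNAi (right), both against the same EV 15C libraries. Filled points passed an adjusted p under 0.05, which 8 did on the left and 6 on the right.

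The comparison of iff-1 RNAi 15C with EV 15C addresses the effect of silencing iff-1 at the lower temperature. Under iff-1 RNAi the H3 gene his-45, the H2A genes his-61 and his-47, the H4 gene his-60 and the H3.3 gene his-71 fell, and the H2A gene his-35 rose. The abundant variants htz-1, his-72 and his-74 did not pass the test. In all 6 of 24 tested members were called, 1 higher and 5 lower, against 31% of all genes tested, 16% higher and 15% lower. Of those called genes 51.5% were higher, or 41.1% when the libraries were scaled without their 10 highest genes. The members' median log2 fold change was -0.14, against 0.01 for all genes. Only 3 members were called without EV 15C replicate 1, without iff-1 RNAi 15C replicate 1 or without iff-1 RNAi 15C replicate 2.

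The H3 gene his-45 (chromosome IV, 11326588 to 11326998, plus strand) had 5.87, 6.09 and 5.72 FPKM in EV 15C and 2.67, 3.88 and 4.21 FPKM under iff-1 RNAi. It was lower in all 3 RNAi libraries, and the mean fell by 39.2% (log2 -0.60, SE 0.13, limma adjusted p = 0.00971). In EV 20C it had 5.20 to 5.58 FPKM (log2 -0.11 against EV 15C, limma adjusted p = 0.57). The H2A gene his-47 of the same array had 10.7, 9.08 and 8.71 FPKM in EV 15C and 6.795, 6.86 and 7.75 FPKM under iff-1 RNAi (log2 -0.37, SE 0.10, limma adjusted p = 0.0217). This call was lost without EV 15C replicate 1 and without iff-1 RNAi 15C replicate 1 or 2 (adjusted p up to 0.0737).

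In the array that holds his-59 to his-62, his-61 had 25.5, 23.2 and 24.4 FPKM in EV 15C and 13.7, 16.5 and 19.5 FPKM under iff-1 RNAi (log2 -0.54, SE 0.12, limma adjusted p = 0.00974). The gene his-60 had 30.2, 27.4 and 27.7 FPKM and 20.3, 16.9 and 23.9 FPKM (log2 -0.47, SE 0.10, limma adjusted p = 0.0101). Neither gene's groups overlapped. Their partners his-59, with 7.52, 6.88 and 6.78 FPKM under iff-1 RNAi (log2 -0.31, limma adjusted p = 0.0681), and his-62, with 8.30, 6.15 and 8.96 FPKM (log2 -0.26, limma adjusted p = 0.215), did not pass. Without EV 20C replicate 2, which enters the shared estimate of spread, his-59 passed (adjusted p = 0.0356).

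The H2B gene his-48 had 5.004, 4.44 and 4.72 FPKM under iff-1 RNAi (log2 -0.12, limma adjusted p = 0.565), and the H3 gene his-63 had 8.39, 8.47 and 6.04 FPKM (log2 -0.15, limma adjusted p = 0.414). Both overlapped their EV 15C libraries.

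The H2A gene his-35 had 83.2, 84.8 and 86.3 FPKM under iff-1 RNAi, above the 66.7 to 71.9 FPKM of EV 15C (log2 0.28, SE 0.07, limma adjusted p = 0.0217). The call was lost without EV 15C replicate 1 or 2 and without any single RNAi library (adjusted p up to 0.077). Its neighbours his-41, with 62.97, 63.6 and 75.3 FPKM (log2 -0.02, limma adjusted p = 0.853), and his-37, with 62.9, 60.9 and 68.3 FPKM (log2 0.12, limma adjusted p = 0.378), did not pass. The H4 gene his-67 had 35.3, 30.6 and 36.05 FPKM (log2 -0.19, limma adjusted p = 0.0923), and his-68 had 97.3, 96.7 and 106 FPKM (log2 -0.04, limma adjusted p = 0.579).

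Among the variants, his-71 had 6.75, 6.30 and 7.13 FPKM under iff-1 RNAi against 7.85 to 8.66 FPKM in EV 15C (log2 -0.26, SE 0.08, limma adjusted p = 0.0365). This call was lost in 9 of 18 alternatives (adjusted p from 0.0226 to 0.117), among them leaving out any 1 EV 15C library, EV 20C replicate 3, or iff-1 RNAi 15C replicate 1 or 2. The gene htz-1 had 740.3, 787 and 793 FPKM, each below the EV 15C libraries, but the difference of -0.10 did not pass (SE 0.05, limma adjusted p = 0.17). Scaled without the 10 highest genes it was -0.13 and passed (adjusted p = 0.0465). The gene his-72 had 512, 517 and 499 FPKM (log2 0.02, limma adjusted p = 0.795), and his-74 had 632, 642 and 649 FPKM (log2 0.12, SE 0.06, limma adjusted p = 0.143). The his-74 difference passed without EV 20C replicate 1 (adjusted p = 0.0111) and in a fit of the compared groups alone (adjusted p = 0.0126). The linker gene his-24 had 2.08, 1.78 and 2.65 FPKM (log2 -0.45, SE 0.30, limma adjusted p = 0.288), and without EV 20C replicate 2 it passed (adjusted p = 0.0423). Groups did not overlap for 12 of 24 members, against 49.7% of all genes tested.

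Both comparisons use the EV 15C libraries, so they are not independent. The genes his-60 and his-35 were called in both, in opposite directions: his-60 was highest in EV 20C and lowest under iff-1 RNAi, and his-35 the reverse. The direct comparison of iff-1 RNAi 15C with EV 20C differs in temperature and in RNAi at once. It called 16 of 24 members, 5 higher and 11 lower under iff-1 RNAi, against 48.9% of all genes tested, 20.5% higher and 28.4% lower. Groups did not overlap for 17 members, against 56.5% of all genes. The gene his-60 differed by -1.45 (SE 0.10, limma adjusted p = 4.5e-05), his-59 by -1.05 (adjusted p = 0.000195), his-48 by -0.86 (adjusted p = 0.00165), htz-1 by -0.44 (adjusted p = 0.000267) and his-72 by -0.31 (adjusted p = 0.000474). The genes his-35 (log2 0.51), his-41 (0.51), his-67 (0.49) and his-37 (0.34) were higher under iff-1 RNAi than in EV 20C. C50F4.6, which overlaps his-41, was higher too (log2 0.31, limma adjusted p = 0.0196). In contrast nstp-10, which overlaps his-37, was lower (log2 -0.23, limma adjusted p = 0.00719). The gene his-24 differed by -1.34 (adjusted p = 0.00649), and by -0.94 without EV 20C replicate 2. The call of his-37 was lost without EV 20C replicate 3 and without iff-1 RNAi 15C replicate 3 (adjusted p up to 0.059). That of his-63 (log2 -0.36, limma adjusted p = 0.0468) was lost in 13 of 18 alternatives.

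**Figure D4:**
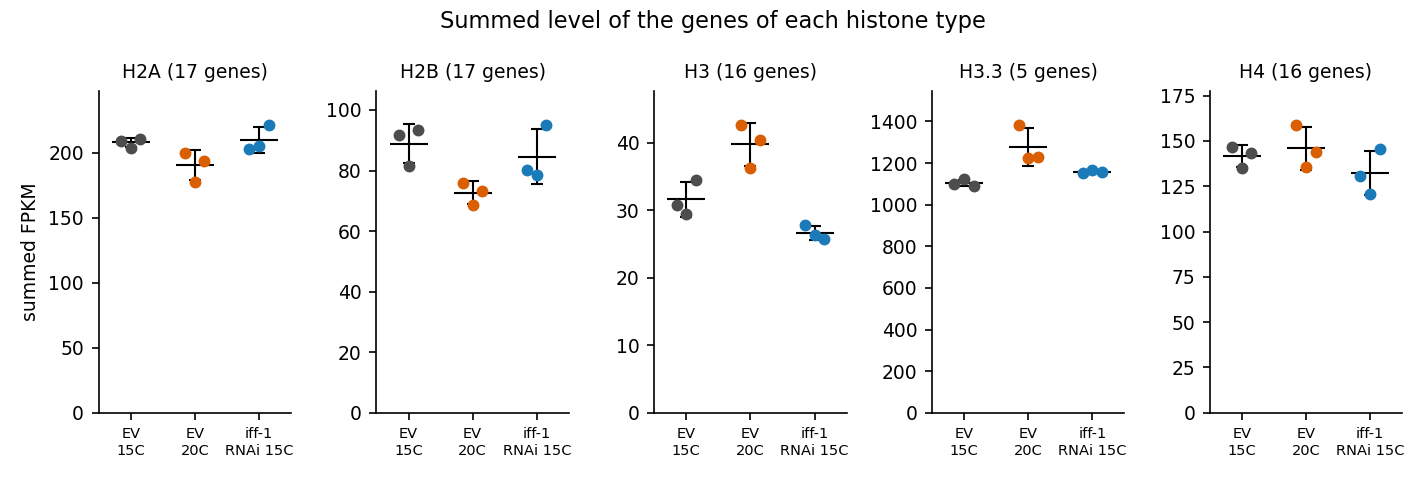
Summed FPKM of the genes of a histone type, those listed at 0 included, in each library (points) with mean and SD (bars), on axes that start at 0. The H3 sums are highest in EV 20C and lowest under iff-1 RNAi, and the H4 sums of the 3 groups overlap.

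Near-identical copies can share reads, so levels were also summed per type, as a description without a test. Of the core-type genes 33 of 66 were listed at 0 in all libraries and add nothing to the sums. Reads that match several copies may therefore be missing from the sums, which are not totals of a type. The summed H3.3 was 1104 ± 15.6 FPKM in EV 15C, 1277 ± 91.3 in EV 20C and 1159 ± 8.48 under iff-1 RNAi (SD, n = 3). The summed core-type H3 was 31.6 ± 2.60, 39.7 ± 3.24 and 26.6 ± 1.04 FPKM. For H3 and for H3.3 no 2 groups overlapped. Without his-59, its highest member, the H3 sum of EV 20C differed from that of EV 15C by 0.08 on the log2 scale, against 0.33 with it. Without his-74 the H3.3 sum under iff-1 RNAi differed from EV 15C by 0.01, against 0.07 with it. Scaled without the 10 highest genes, the H3.3 sum with his-74 differed by 0.04.

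The summed H2B was 88.9 ± 6.31 FPKM in EV 15C, 72.6 ± 3.76 in EV 20C and 84.6 ± 9.08 under iff-1 RNAi. The gene his-41 held 74.1% of it, and without his-41 the difference at 20°C turned from -0.29 to 0.33 on the log2 scale. The summed H2A was 208 ± 3.42, 190.4 ± 11.8 and 209.7 ± 10.05 FPKM, with his-68 and his-35 holding 84.3%. For H2A and for H2B the EV 20C sums lay below those of both other groups without overlap. The sums of EV 15C and iff-1 RNAi 15C overlapped for both types. The summed H4 was 141.5 ± 6.02, 146 ± 11.8 and 132 ± 12.3 FPKM, with overlap between all groups. Without his-37, its highest member, the H4 sum differed from EV 15C by 0.21 at 20°C and by -0.28 under iff-1 RNAi on the log2 scale, against 0.05 and -0.10 with it. Within that H4 sum, his-60 was higher at 20°C while his-67 was lower. Over the core types together the sums were 470 ± 17.4, 449 ± 30.1 and 453 ± 29.97 FPKM.

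Other genes of histone supply were read from lists drawn up by role, with earlier results of these data known. Of the 8 other linker histone genes (hil-1 to hil-8), 5 were tested, and at 20°C 2 rose and 1 fell. The gene hil-4 rose from 596 ± 20.6 to 765 ± 36.2 FPKM (log2 0.36, SE 0.06, limma adjusted p = 0.00297), and hil-5, named after its values were seen, from 705 ± 8.17 to 834 ± 101 FPKM (log2 0.24, limma adjusted p = 0.0416). The gene hil-1 fell from 10.9 ± 0.399 to 5.69 ± 1.10 FPKM at 20°C (log2 -0.84, limma adjusted p = 0.00265) and to 6.50 ± 0.542 FPKM under iff-1 RNAi (log2 -0.67, limma adjusted p = 0.00534), the only one of the 5 called there. Summed muscle markers, at 192 to 223 FPKM in EV 15C, were 125 to 197 FPKM in EV 20C and 144 to 174 FPKM under iff-1 RNAi, and their part in the hil-1 values was not tested.

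The 2 centromeric H3 genes, hcp-3 and cpar-1, were both called higher at 20°C (log2 0.29 and 0.22), and neither passed under iff-1 RNAi (limma adjusted p = 0.0778 and 0.0518). Of 14 tested genes for histone chaperones and nucleosome assembly, 6 rose and 1 fell at 20°C, and 2 rose and 3 fell under iff-1 RNAi. The gene nasp-1, of the NASP family of H3 and H4 chaperones, rose from 260.1 ± 1.38 to 327 ± 5.27 FPKM at 20°C (log2 0.33, limma adjusted p = 0.000417). The gene unc-85, an ASF1 homologue that hands H3 and H4 to the assembly factors, rose from 236 ± 6.10 to 270.5 ± 5.73 FPKM at 20°C (log2 0.20, limma adjusted p = 0.00775). Under iff-1 RNAi unc-85 fell to 184 ± 9.37 FPKM (log2 -0.36, limma adjusted p = 0.000606).

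Of 5 genes for complexes linked to H2A.Z exchange, 3 rose and 1 fell at 20°C, and 1 rose and 2 fell under iff-1 RNAi. The gene gfl-1, of the YEATS domain family, rose in both (log2 0.17 and 0.11), and ruvb-1, a RuvB-like ATPase shared by several complexes, fell in both (log2 -0.10 and -0.22). Of 6 genes for histone mRNA 3′ ends, 2 rose at 20°C and 2 fell under iff-1 RNAi. The exonuclease gene eri-1 rose at 20°C (log2 0.27, limma adjusted p = 0.00479), and cpsf-3, for the endonuclease of 3′ end cleavage, fell under iff-1 RNAi (log2 -0.14, limma adjusted p = 0.0181). The stem-loop binding protein gene cdl-1, named after its values were seen, averaged 302 ± 3.05 FPKM in EV 15C and 318 ± 3.32 in EV 20C (log2 0.08, limma adjusted p = 0.0428).

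Of 13 S-phase genes, 6 rose and 0 fell at 20°C, and 2 rose and 7 fell under iff-1 RNAi. The gene rnr-1, for the large subunit of ribonucleotide reductase, averaged 324 ± 7.19 FPKM in EV 15C and fell to 265 ± 3.67 FPKM with iff-1 silenced (log2 -0.29, limma adjusted p = 0.00108) and had 326 ± 15.9 FPKM at 20°C (limma adjusted p = 0.905). The helicase gene mcm-3 differed by 0.22 at 20°C (adjusted p = 0.000739) and by -0.05 under iff-1 RNAi (adjusted p = 0.0938). The counts of all these lists stand beside 28% of all genes called at 20°C, 19.3% higher and 8.69% lower. Under iff-1 RNAi it was 31%, 16% higher and 15% lower. No list was tested against the other genes.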

How the data were processed

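Per the labels' protocols, total RNA was poly-A selected, made into stranded libraries and sequenced as paired reads of 75 nt. The authors deposited 1 FPKM value per gene and library. The submitters' processing notes name Cufflinks and CASAVA. The sources used here do not give the aligner, build, annotation or strand setting. No counts were used. In the low values 73.4% to 77.2% lay within 0.25 of a whole multiple of the estimated value of 1 fragment, where 50% would without such steps, so counts were not recovered. The same steps put the depth of the libraries at about 33800000 to 39400000 fragments, an estimate only. The value of 1 fragment was the median of values within a preset range. That range bounds the estimate, so its likeness between libraries is no check on it. Library sums were 973003 to 1064980 FPKM.

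Ensembl's WBcel235 annotation gives 22 of the 73 members the symbol of another copy. Members were therefore named through RefSeq locus tags (WBcel235), which matched all 73 with the same coordinates. Types came from background knowledge of the gene names.

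Genes with a mean of at least 1 FPKM (8572) entered limma (version 3.58.1, under R 4.3.3) as log2(FPKM + 1), all 9 libraries in 1 fit with a variance trend, two-sided, with Benjamini-Hochberg adjustment over all genes. Fold changes are on that scale, which understates changes of low genes. The fit was tested on simulated data. A count per type is a description. Members and lists were chosen with earlier results of these data known.

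Genes were named by a rule: htz-1, his-24, his-35, the H3.3 genes and, since over 15 members were called in some comparison, the 3 highest of each type. Their values are given per library where a result turns on them, otherwise as a range. For the other lists, up to 2 genes with the smallest adjusted p are named. The name daxx-1 was not matched.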

Additional observations from a re-analysis of the deposited data

How the results depend on the processing

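Under 18 alternatives each, the calls of htz-1, his-72, his-60, his-59, his-48, his-67 and his-41 at 20°C, and those of his-60 and his-61 under iff-1 RNAi, kept their direction and passed in all, as did that of his-45 in the 17 that tested it. Among the members named by the rule and his-47, no called gene changed sign. The genes of the other lists and the overlapping genes were not followed through the alternatives. Leaving out 1 library moved the count of called members between 7 and 10 at 20°C, between 3 and 8 under iff-1 RNAi and between 12 and 15 in the direct comparison. Scaling moved the counts from 8 to 9 (median ratios), 9 (without the 10 highest genes) and 11 (quantiles) at 20°C, and from 6 to 6, 7 and 8 under iff-1 RNAi.

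The replicate numbers are not stated to pair libraries, and same-numbered libraries of different groups did not deviate together (r across genes from -0.19 to 0.08 in 9 pairs). With the replicate block 8 members were called at 20°C, 6 under iff-1 RNAi (his-67 in, his-71 out) and 15 in the direct comparison. With only genes of at least 5 FPKM, 4 of 17 members were called under iff-1 RNAi. The cause of these shifts was not tested. With no filter 40 members were tested, and the 7 called at 20°C, 5 under iff-1 RNAi and 14 in the direct comparison were all among those called with it, so no member under 1 FPKM was called.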
